A study of Mus musculus with 6 samples.

Results

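The proteins of the cytosolic ribosome were followed at the transcript level in ID8, an ovarian cancer line of the mouse derived from ovarian surface epithelium, after exposure to the chemokine CCL6. The genes were taken from the array annotation by symbol, as Rps or Rpl followed by a number and at most 1 of the letters a, x or l, as Rplp0 to Rplp2, or as Rpsa. Of 60 probe sets with such a symbol, 1 (Rps4l) was left out because RefSeq lists it as a pseudogene. This left 59 genes on 59 probe sets, 22 of the small and 37 of the large subunit, of 19505 named genes on the array. Ribosomal protein genes with no probe set under such a symbol were not analysed here.

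The CCL6 group was kept without serum for 24 h and received 200 ng/mL of recombinant CCL6 for 6 h, and the unstimulated group was kept without serum for 24 h and received no CCL6. The sample labels do not say whether the 6 h fell within the 24 h or followed them. An effect of the time without serum was not tested. Each group consisted of 3 biological replicates of the same line with 1 Clariom S array each, so the p-values measure the spread between cultures of 1 line and the number of arrays limits their precision. The study ran the arrays to look for pathways behind the migration of ovarian cancer cells toward CCL6, a ligand of the receptor CCR1. Values are deposited RMA expression values, read as log2, so that a difference of 1 is a 2-fold difference. Because RMA equalises the distributions of the arrays, a shift common to most transcripts is removed, and fewer ribosomal transcripts per cell cannot be told apart in bulk RNA from fewer cells that carry many of them.

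The ribosome translates messenger RNA with a small subunit, which reads the codons, and a large subunit, which joins the amino acids. Most of its proteins are present in equal numbers, and their messengers are among the most abundant in growing cells. In vertebrates these messengers begin with a C followed by a run of pyrimidines, the terminal oligopyrimidine (TOP) tract, through which the kinase mTORC1 and the binding protein LARP1 control their translation. Growth factors and serum act on the same route.

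Runs of this kind can be read in the reference sequence at the annotated start of many, but not all, of these genes. RefSeq promoter entries (GRCm38.p6, 250 bases before and 50 bases after the annotated start) were found for 47 of the 59 members, 58 promoters in all. Long tracts that cross or touch the annotated start are shown for 3 genes of each subunit, 5′ to 3′, with 15 bases before the start and 15 bases from the start on. Capitals mark the longest run of C and T that begins with C within 20 bases of the start, and of several promoters the one with the longest run is shown.

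Rps10 (chr17:27635230-27635259, minus strand): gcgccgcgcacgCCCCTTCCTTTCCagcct
Rps18 (chr17:33955651-33955680, minus strand): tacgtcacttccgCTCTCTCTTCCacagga
Rps6 (chr4:86857353-86857382, minus strand): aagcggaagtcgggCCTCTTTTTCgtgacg
Rpl15 (chr14:18270972-18271001, minus strand): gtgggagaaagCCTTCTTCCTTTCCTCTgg
Rpl35 (chr2:39005117-39005146, minus strand): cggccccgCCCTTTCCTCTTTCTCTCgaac
Rpl7a (chr2:26910792-26910821, plus strand): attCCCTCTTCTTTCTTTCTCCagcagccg

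Of the 9 members whose CCL6 arrays all lay below their unstimulated arrays (described further on), those with the longest run inside the 30 bases are shown in the same way, because their starts range from a clear tract to a short run. In Rps15 and Rpl37a the longest run began outside these 30 bases, and no start of Rps14 is shown.

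Rps9 (chr7:3704026-3704055, plus strand): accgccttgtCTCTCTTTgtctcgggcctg
Rps16 (chr7:28350674-28350703, plus strand): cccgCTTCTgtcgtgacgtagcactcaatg
Rps19 (chr7:24884898-24884927, plus strand): gagggagcggggtgtggagggCTCTCCCac
Rps21 (chr2:180257364-180257393, plus strand): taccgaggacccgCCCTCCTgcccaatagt
Rps24 (chr14:24490663-24490692, plus strand): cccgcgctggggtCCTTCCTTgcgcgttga
Rpl19 (chr11:98026909-98026938, plus strand): tgggCTCTCCCCTTCgcagataatgggcgg

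Rps9, Rps21 and Rps24 carried a run of at least 7 pyrimidines across the annotated start, whereas the run of Rps16 fell short of 7 bases and that of Rps19 lay downstream of the start. A run of at least 7 bases that begins with C within 20 bases of the start was present in 27 of 58 member promoters (46.6%), in 50% of 24 promoters of the small subunit and in 44.1% of 34 of the large subunit. It was present in 17.8% of 73 promoters of mitochondrial ribosomal protein genes and in 18.7% of all 32851 promoters. The narrower motif CTTTCC or CTTTTCC, itself made of pyrimidines and so overlapping such runs, was found within 20 bases of the start in 4.17% of promoters of the small and 20.6% of the large subunit, against 2.74% of mitochondrial ribosomal promoters and 2.38% of all promoters.

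Other core elements of housekeeping promoters were searched in the whole window. CCGGAAG, the core bound by ETS-family factors, was found on either strand in 36.2% of member promoters, in 34.2% of mitochondrial ribosomal promoters and in 8.86% of all promoters. ATGGCG, the core bound by YY1, was found on either strand in 29.3% of member promoters, in 24.7% of mitochondrial ribosomal promoters and in 8.93% of all promoters. TATAAA within 50 bases before the start was found in 0% of member promoters and in 2.63% of all promoters. These are matches of letters and were not tested as binding sites.

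**Figure D1:**
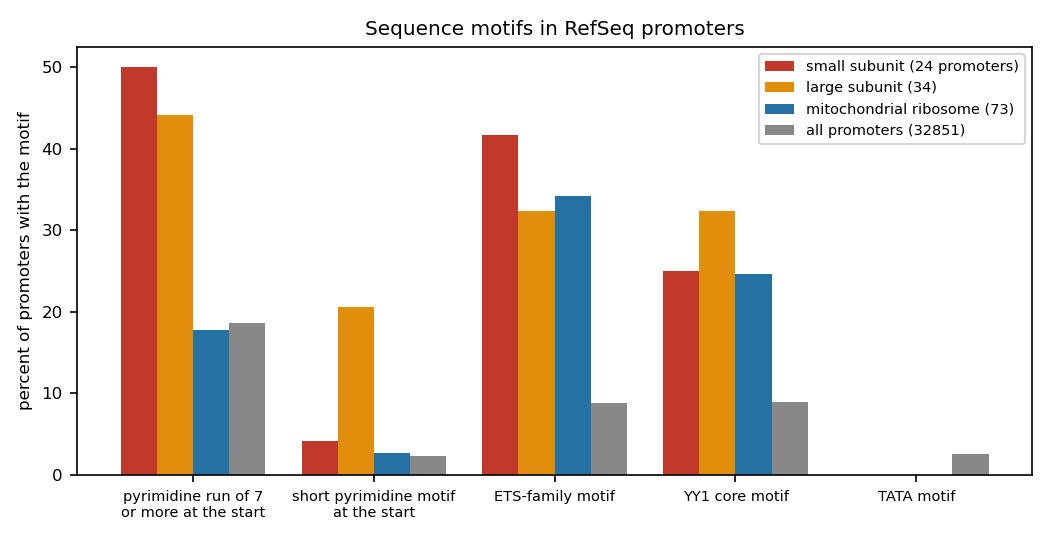
Share of RefSeq promoters (percent, y axis) that hold each motif (x axis), with bars for members of the small subunit, members of the large subunit, mitochondrial ribosomal protein genes and all promoters. The pyrimidine run stands at 50% and 44.1% for the cytosolic subunits, against 17.8% for mitochondrial ribosomal genes and 18.7% for all promoters, whereas the ETS-family and YY1 motifs are at similar shares in cytosolic and mitochondrial ribosomal genes.

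Nearly all members were among the bright probe sets of the array. A probe set was called above background when its mean in either group was over 4.85, the 95th percentile of 1450 probe sets of odorant, pheromone and taste receptor genes, and 57 of 59 members and 56.5% of all probe sets were. In 56 members every reading on the 6 arrays was above 11, between 11.04 and 17.97, whereas the array medians lay between 5.42 and 5.49. The exceptions were 3 copies with a restricted tissue range, Rpl10l, Rpl3l and Rpl39l, described below. The genes were spread over 17 chromosomes, with 7 on chromosome 9 and 6 each on chromosomes 7 and 17, so the set is not a cluster of neighbours. Ribosomal protein genes have many processed copies elsewhere in the mouse genome, and binding of such copies by the probes was not tested.

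The identity of the cells was checked with marker genes. Of 8 markers of ovarian surface and other epithelia, 7 were above background, Krt18, Krt19, Wt1 and Upk3b among them, and Pax8 was not. Krt7 passed on its CCL6 mean alone (5.09, against 4.78 in unstimulated cells). None of 5 measured macrophage, 2 lymphocyte, 3 endothelial and 2 adipocyte markers was above background on group means.

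After CCL6 the ribosomal protein genes had on balance slightly lower values than in unstimulated cells, and no gene passed a test corrected for the number of probe sets. The difference was below 0 in 45 of 59 members and above 0 in 14, with a median of -0.17 (quartiles -0.32 and -0.01) and a range of -0.67 to 0.32. Over all 22206 probe sets 51.5% of differences were below 0, with a median of -0.01, and over the 12544 probe sets above background 48.6% were, with a median of 0.01. The small subunit held the more negative values. Its median was -0.28 with 18 of 22 genes below 0, against -0.12 with 27 of 37 genes below 0 in the large subunit, and the medians differed by -0.16. Members were chosen with earlier results known, so these counts are a description with no test of the list.

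Each gene was compared between the groups with limma on all 22206 probe sets, two-sided and with Benjamini-Hochberg adjustment. No member and no other probe set had an adjusted p under 0.05 (0% of probe sets), and adjusted p-values began at 0.999. At an unadjusted p under 0.05, 1 member was lower after CCL6, where 1.81% of all probe sets were, and 0 members were higher, where 1.28% of all probe sets were. The member was Rps14. Over the whole array 685 probe sets had an unadjusted p under 0.05. The methods' t-test, run on the same values, gave 812 and 1 after adjustment, and among the members it gave 4 unadjusted, all lower after CCL6. An exact permutation test of a gene on 3 against 3 arrays cannot give a p below 0.1.

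The order of the arrays gave more members on the lower side. In 9 of 59 members (15.3%) every CCL6 array lay below every unstimulated array, where this held for 4.41% of all probe sets. The reverse order was found in 0 members, where it held for 3.77% of all probe sets. The 9 members were Rps9, Rps14, Rps15, Rps16, Rps19, Rps21 and Rps24 of the small subunit (31.8% of its 22 genes) and Rpl19 and Rpl37a of the large subunit (5.41% of its 37 genes). The count depended on which arrays were included, and such an order is met more easily with fewer arrays. Without CCL6 replicate 1 it was 22 of 59 members, where 10.3% of all probe sets had this order. Without unstimulated replicate 3 it was 31 of 59 members, where again 10.3% did. Without both arrays numbered 3 it was 42 of 59 members, where 20.9% of all probe sets did.

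**Figure D2:**
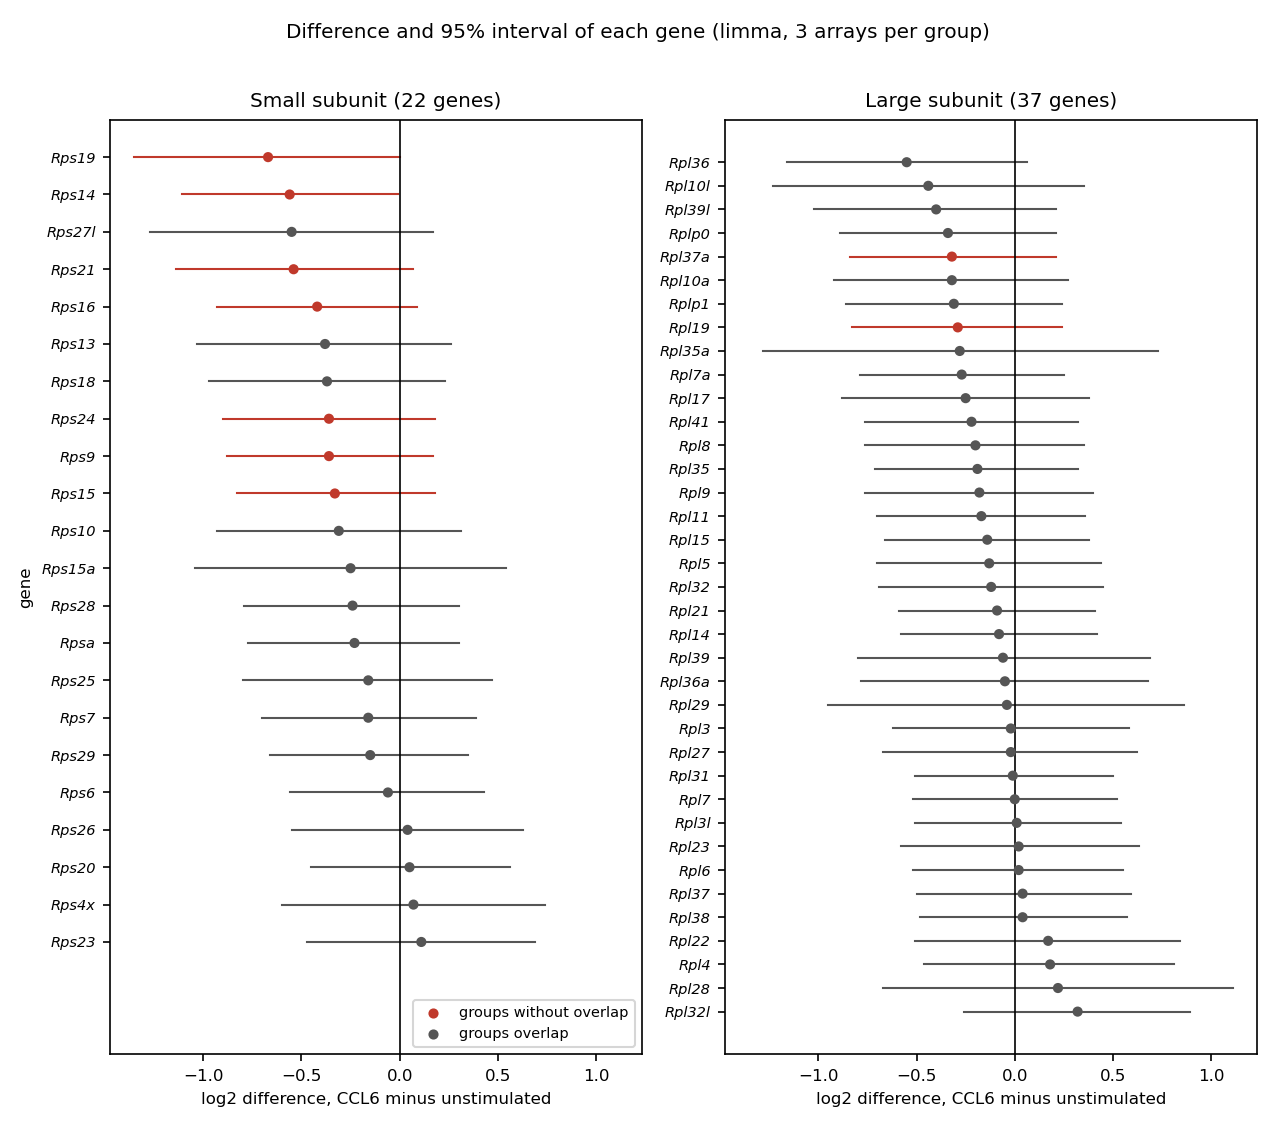
Difference of each gene on the log2 scale (x axis, CCL6 minus unstimulated; points) with its 95% interval from limma (lines), for 22 genes of the small and 37 genes of the large subunit (y axis), ordered from the most negative at the top. Red marks the 9 genes whose groups did not overlap, 7 of them in the small subunit, and 58 of the 59 intervals hold 0.

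In the small subunit, the 4 smallest unadjusted p-values above background belonged to Rps14, Rps19, Rps21 and Rps16. Rps14 (probe set TC1800000616.mm.2), a protein of the platform that lies near the end of the small subunit RNA, had values of 13.44, 13.38 and 13.50 in CCL6 cells, against 14.23, 14.09 and 13.68 in unstimulated cells. The CCL6 arrays lay within a narrow band below all unstimulated arrays, and the nearest of these was unstimulated replicate 3. The means were 13.44 ± 0.06 in CCL6 and 14.00 ± 0.28 in unstimulated cells (SD, n = 3 arrays each). The difference was -0.56 (SE 0.24, 95% interval -1.11 to -0.01), or 1.47-fold lower in CCL6, and limma gave an adjusted p of 0.999 (0.0479 unadjusted).

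Rps19 (probe set TC0700000401.mm.2), a protein of the head of the small subunit and the gene most often mutated in human Diamond-Blackfan anaemia, had the largest difference of all members. Its values were 11.71, 11.53 and 11.86 in CCL6 cells, against 12.94, 12.20 and 11.99 in unstimulated cells. The groups did not overlap, but unstimulated replicate 1 stood apart from the rest and unstimulated replicate 3 was close to the CCL6 arrays. The difference was -0.67 (SE 0.30, 95% interval -1.35 to 0.00), or 1.6-fold lower, with an adjusted p of 0.999 in limma. When arrays were left out in turn it ranged from -0.87 to -0.39.

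Rps21, a small protein of the body of the subunit, had values of 15.41, 14.87 and 15.16 in CCL6 cells, against 16.01, 15.61 and 15.42 in unstimulated cells. The highest CCL6 array and the lowest unstimulated array nearly met, and the difference was -0.54 (SE 0.27). Rps16, a head protein whose tail reaches the decoding site, had 15.07, 15.14 and 15.14 in CCL6 cells, against 15.70, 15.53 and 15.37 in unstimulated cells. Here the CCL6 arrays were almost identical and the unstimulated arrays were all higher, with a difference of -0.42 (SE 0.22).

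The other members without overlap had smaller differences. Rps15, which lies in the head near the decoding site, gave 16.14, 16.06 and 16.08 in CCL6 cells, against 16.41, 16.56 and 16.29 in unstimulated cells (difference -0.33, SE 0.22). Rps9, a body protein tied to accurate decoding in bacteria and yeast, gave 14.90, 14.58 and 14.89 in CCL6 cells, against 15.30, 15.05 and 15.09 in unstimulated cells (difference -0.36, SE 0.23). In both genes the highest CCL6 array lay close below the lowest unstimulated array. Rps24, another gene of Diamond-Blackfan anaemia in humans, gave 16.02, 15.72 and 15.93 in CCL6 cells, against 16.49, 16.11 and 16.15 in unstimulated cells (difference -0.36, SE 0.24). Its groups nearly met, at CCL6 replicate 1 and unstimulated replicate 2.

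Described by position, 9 of 14 listed proteins of the head of the small subunit were members. Their median difference was -0.31 with 8 below 0, and Rps15, Rps16 and Rps19 had no overlap (33.3%). Of 20 listed proteins of the body and platform 13 were members. Their median was -0.25 with 10 below 0, and Rps9, Rps14, Rps21 and Rps24 had no overlap (30.8%). Over all probe sets 51.5% were below 0 and 4.41% had this order. The member of the small subunit with the largest positive difference was Rps23, which sits at the decoding centre. It had 17.37, 17.56 and 17.91 in CCL6 cells, against 17.43, 17.76 and 17.33 in unstimulated cells. The groups overlapped, and the difference of 0.11 (SE 0.26) became -0.04 without CCL6 replicate 3. Rps6, the protein that S6 kinases phosphorylate when mTORC1 is active, had 17.88, 17.73 and 17.83 in CCL6 cells, against 17.95, 17.85 and 17.83 in unstimulated cells, and is named here after its values were seen. It varied little over the 6 arrays (difference -0.06, SE 0.22).

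In the large subunit, the 4 smallest unadjusted p-values above background belonged to Rpl36, Rplp0, Rpl37a and Rplp1. Rpl36 had values of 12.22, 11.92 and 11.75 in CCL6 cells, against 12.78, 12.62 and 12.14 in unstimulated cells. Unstimulated replicate 3 lay below CCL6 replicate 1, so the groups overlapped. The difference was -0.55 (SE 0.27, 95% interval -1.16 to 0.06), or 1.46-fold lower, and limma gave an adjusted p of 0.999 (0.0717 unadjusted).

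Rplp0 and Rplp1 are the measured proteins of the stalk, the flexible arm that recruits translation factors to the large subunit. Rplp0 had 16.10, 15.84 and 15.75 in CCL6 cells, against 16.46, 16.24 and 16.00 in unstimulated cells (difference -0.34, SE 0.24). Rplp1 had 17.76, 17.32 and 17.39 in CCL6 cells, against 17.97, 17.73 and 17.69 in unstimulated cells (difference -0.31, SE 0.24). In both genes CCL6 replicate 1 reached into the unstimulated range, and unstimulated replicate 1 was the highest array.

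Rpl37a and Rpl19 were the large subunit genes whose groups did not overlap. Rpl37a had 13.33, 13.32 and 13.40 in CCL6 cells, against 13.83, 13.75 and 13.42 in unstimulated cells (difference -0.32, SE 0.23). Rpl19, a protein near the exit of the tunnel that also contacts the small subunit, had 16.81, 16.70 and 16.88 in CCL6 cells, against 17.35, 17.05 and 16.88 in unstimulated cells (difference -0.29, SE 0.24). In both genes unstimulated replicate 3 was next to the CCL6 arrays, and in Rpl19 its value and that of CCL6 replicate 3 agree when written to 2 decimals.

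The other structural groups of the large subunit were nearer to 0. Rpl5 and Rpl11, which carry the 5S RNA and bind MDM2 when ribosome assembly is disturbed, had differences of -0.13 (SE 0.25) and -0.17 (SE 0.23). The 6 measured proteins that line the exit tunnel or surround its end, Rpl4, Rpl17, Rpl19, Rpl31, Rpl35 and Rpl39, had a median of -0.12 with 5 below 0. The remaining 24 proteins of the large subunit had a median of -0.06 with 16 below 0, and Rpl37a had no overlap (4.17%, against 4.41% of all probe sets). Of the 18 genes listed for Diamond-Blackfan anaemia in humans 14 were measured, all of them members, and these had a median of -0.18 with 13 below 0. Rpl32l, annotated as similar to Rpl32, had the largest positive difference of all members, with 12.46, 12.32 and 12.42 in CCL6 cells, against 12.13, 12.39 and 11.73 in unstimulated cells (difference 0.32, SE 0.25). The groups overlapped at unstimulated replicate 2, and unstimulated replicate 3 was the lowest array.

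The second copies were set beside their partners. Rpl3l, which replaces Rpl3 in heart and skeletal muscle, lay at 2.92, 2.60 and 2.96 in CCL6 cells, against 2.85, 2.87 and 2.71 in unstimulated cells, and was not above background in either group. Rpl3 itself had 16.38, 16.40 and 16.80 in CCL6 cells, against 16.65, 16.79 and 16.19 in unstimulated cells (difference -0.02, SE 0.26). Neither copy separated the groups. Rpl39l, which replaces Rpl39 in male germ cells, lay at 3.90, 3.25 and 3.75 in CCL6 cells, against 4.06, 3.78 and 4.27 in unstimulated cells, and was also not above background. Rpl39 had 14.50, 14.65 and 14.66 in CCL6 cells, against 15.02, 15.02 and 13.94 in unstimulated cells (difference -0.06, SE 0.33). Its lowest and its highest arrays were both unstimulated.

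Rpl10l, a copy used in the testis, was just above background, with 4.95, 5.50 and 5.89 in CCL6 cells, against 6.19, 6.17 and 5.29 in unstimulated cells (difference -0.44, SE 0.35). Unstimulated replicate 3 lay among the CCL6 arrays. Rps27l, a copy of Rps27 that p53 induces, had 12.65, 11.75 and 11.77 in CCL6 cells, against 12.92, 12.31 and 12.60 in unstimulated cells (difference -0.55, SE 0.32). It overlapped only at CCL6 replicate 1, which lay above 2 of the 3 unstimulated arrays. The partners Rpl10 and Rps27 were not analysed here.

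The precision sets what these arrays could show for single genes. The 95% interval of 58 of 59 members held 0, and its reach to either side had a median of 0.57 and a range of 0.50 to 1.01. In 48 members the interval lay within 1 log2 unit of 0 on both sides, which leaves 2-fold differences outside it. Over the 6 arrays a member varied by between 0.21 and 1.50, with a median of 0.68.

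The members moved together from array to array, and this movement did not follow treatment alone. In the small subunit the median deviation from each gene's own mean over the 6 arrays was -0.09, -0.26 and -0.10 in CCL6 replicates 1 to 3, against 0.33, 0.16 and -0.05 in unstimulated replicates 1 to 3. In the large subunit it was -0.04, -0.11 and 0.03 in CCL6 cells, against 0.22, 0.15 and -0.14 in unstimulated cells. Unstimulated replicates 1 and 2 were thus the high arrays in both subunits. By these medians unstimulated replicate 3 lay just above the CCL6 arrays in the small subunit and below all of them in the large subunit. By the mean deviation of the small subunit it was not above them, with -0.09 against -0.08, -0.24 and -0.07 in CCL6 replicates 1 to 3. Unstimulated replicate 1 was the highest of the 6 arrays in 34 of 59 members, against 2165 of 12544 probe sets above background. The lowest array was CCL6 replicate 2 in 26 members and unstimulated replicate 3 in 19, against 2643 and 2501 of the 12544 probe sets.

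**Figure D3:**
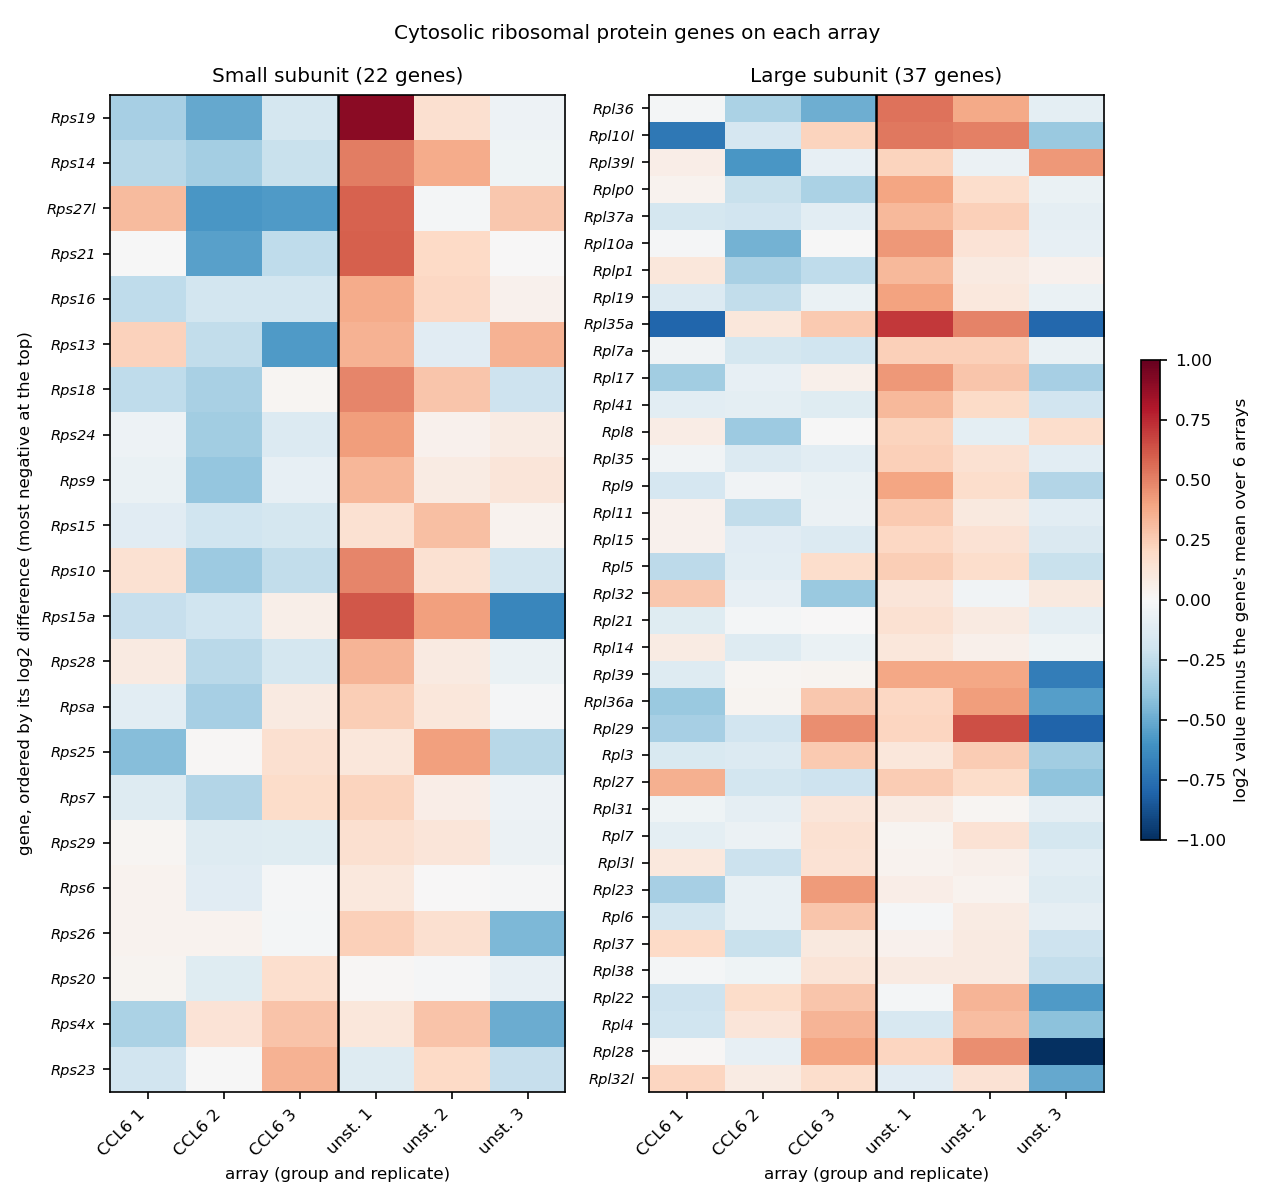
Log2 value of each gene (y axis, most negative difference at the top) on each array (x axis, CCL6 replicates 1 to 3 left of unstimulated, written unst., replicates 1 to 3) minus the mean of that gene over the 6 arrays, as colour from 1 below (blue) to 1 above (red), with values beyond the scale drawn in its end colours. Unstimulated replicates 1 and 2 are red in most rows, and unstimulated replicate 3 is pale or blue, below both of them in 52 of 59 genes.

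Unstimulated replicate 3 lay below both other unstimulated arrays in 52 of 59 members. Set against the mean of those arrays it was lower in 21 of 22 genes of the small subunit (median -0.26) and in 34 of 37 of the large subunit (median -0.35), where 49.2% of probe sets above background were lower (median 0.01). The deepest such gaps, in genes chosen after their values were seen, were -1.38 in Rpl35a, -1.36 in Rpl28, -1.23 in Rpl29, -1.17 in Rps15a and -1.08 in Rpl39. Rpl28, for example, had 16.60, 16.51 and 16.99 in CCL6 cells, against 16.81, 17.06 and 15.58 in unstimulated cells, and its difference of 0.22 (SE 0.39) became -0.23 without unstimulated replicate 3. Rpl35a, mutated in some patients with Diamond-Blackfan anaemia, was low in CCL6 replicate 1 as well, with 11.05, 11.96 and 12.11 in CCL6 cells, against 12.55, 12.34 and 11.06 in unstimulated cells. CCL6 replicate 3 was higher than the mean of the other CCL6 arrays in 15 of 22 genes of the small subunit (median 0.08) and 27 of 37 of the large subunit (median 0.15), against 51.1% of probe sets above background.

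Against unstimulated replicate 1, all 3 CCL6 arrays were lower in 39 of 59 members, where this held for 27% of all probe sets. Against unstimulated replicate 2 this was so in 37 members and in 19.9% of all probe sets. Against unstimulated replicate 3 it was so in 12 members and in 28.8% of all probe sets. The median of the large subunit was -0.26 when unstimulated replicate 3 was left out and -0.04 when unstimulated replicate 1 was, and that of the small subunit was -0.36 and -0.16 in the same fits. When each array was left out in turn, 35 members kept a negative difference in every fit, 16 of them in the small and 19 in the large subunit, 2 kept a positive one, and 21 changed sign in at least 1 fit.

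The same arrays also differed in proliferation genes, a list of 27 measured genes of DNA replication and mitosis. Their mean was 12.61, 12.95 and 11.35 in CCL6 replicates 1 to 3, against 11.54, 11.72 and 12.86 in unstimulated replicates 1 to 3. The arrays with high proliferation values were thus CCL6 replicates 1 and 2 and unstimulated replicate 3, and the last of these was the unstimulated array in which ribosomal protein genes were lowest. The part of this difference between cultures in the ribosomal values was not tested.

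**Figure D4:**
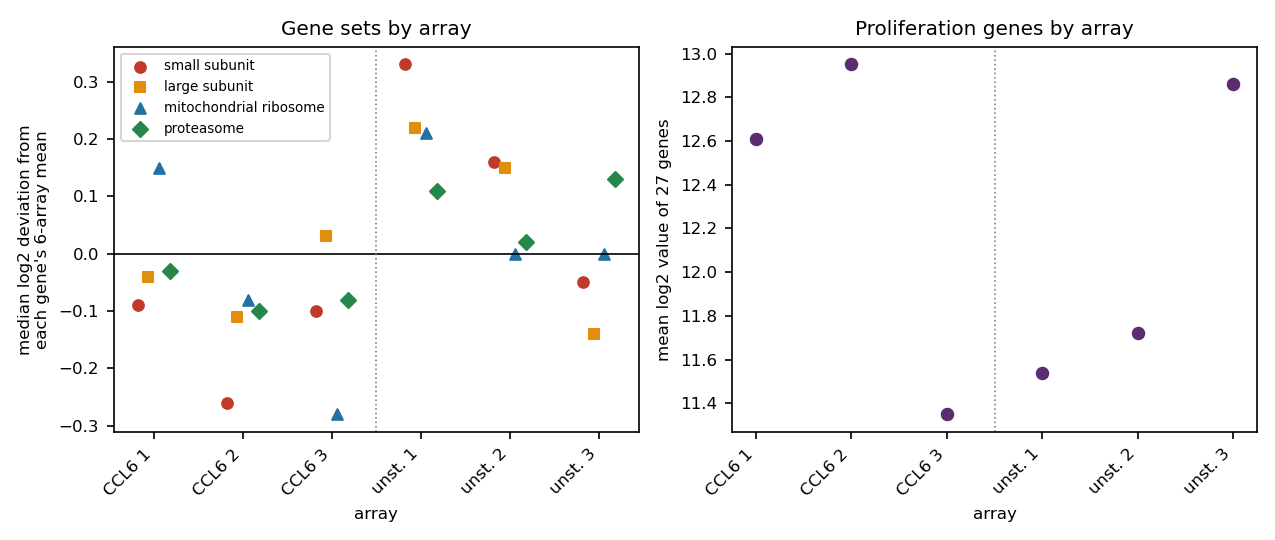
Left, median log2 deviation of each gene set from the genes' own 6-array means (y axis) on each array (x axis, CCL6 replicates left of unstimulated, written unst., replicates), for the small subunit, the large subunit, mitochondrial ribosomal protein genes and proteasome genes. Right, mean log2 value of 27 proliferation genes on the same arrays, with 12.61, 12.95 and 11.35 in CCL6 cells and 11.54, 11.72 and 12.86 in unstimulated cells.

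Genes of other large assemblies were described in the same way. The 76 genes of the mitochondrial ribosome, which translates the messengers of mitochondrial DNA, were below 0 in 58 cases (76.3%) with a median of -0.13. The 33 genes of the constitutive proteasome, which degrades proteins tagged with ubiquitin, were below 0 in 25 cases (75.8%) with a median of -0.12. The large subunit, with 73% below 0 and a median of -0.12, therefore had counts and a median like those of both other assemblies, and the small subunit had a lower median than either. All CCL6 arrays lay below all unstimulated arrays in 2.63% of mitochondrial ribosomal genes (Mrpl41 and Mrpl52) and in 15.2% of proteasome genes (Psma1, Psma2, Psma5, Psmc6 and Psmd10), against 15.3% of the members and 4.41% of all probe sets. These sets were measured on the same arrays as the members, and the differences between sets were not tested.

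The low values in unstimulated replicate 3 were shared with fewer of these genes. It lay below both other unstimulated arrays in 32 of 76 mitochondrial ribosomal genes, in 12 of 33 proteasome genes and in 4968 of 12544 probe sets above background, against 52 of 59 members.

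**Figure D5:**
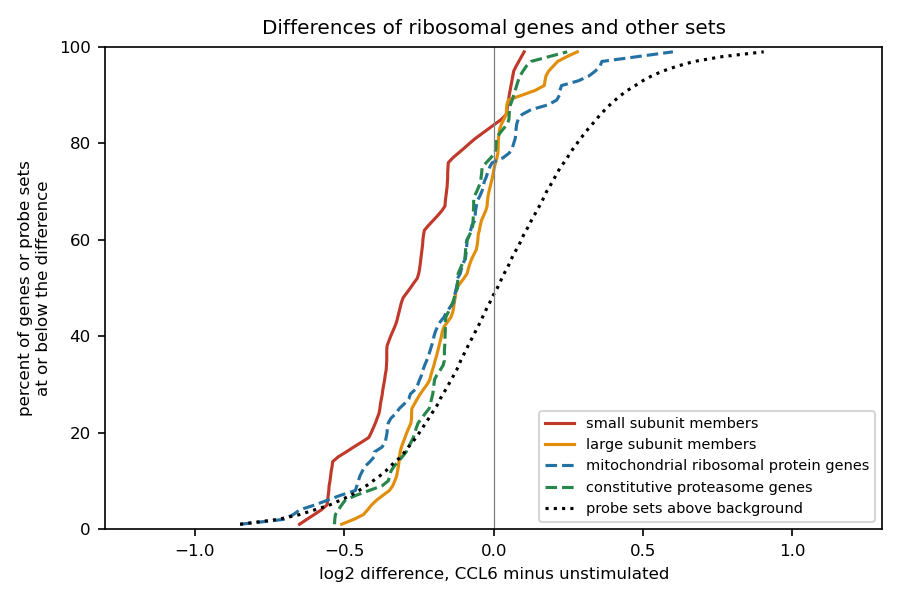
Percent of genes or probe sets (y axis) at or below each log2 difference (x axis, CCL6 minus unstimulated) for the small subunit, the large subunit, mitochondrial ribosomal protein genes, proteasome genes and all probe sets above background. The curve of the small subunit, with a median of -0.28, lies left of the others over its middle part, the large subunit (median -0.12) runs close to the mitochondrial ribosome (-0.13) and the proteasome (-0.12), and probe sets above background centre on 0.01.

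Within the members the differences were also set beside the sequence at the start. The 27 members with a pyrimidine run of at least 7 bases in at least 1 promoter had a median difference of -0.25, against -0.17 in the 20 members without one. In the small subunit the medians were -0.34 in 12 genes with a run and -0.23 in 7 without, and in the large subunit they were -0.13 in 15 genes with a run and -0.05 in 13 without. The other motifs were split in the same way, first over both subunits together. For CTTTCC or CTTTTCC the medians were -0.17 in 8 members with the motif and -0.18 in 39 without. Of these 8, 7 were of the large subunit, where the medians were -0.14 with and -0.08 without. For CCGGAAG the medians over both subunits were -0.17 in 20 with and -0.24 in 27 without, the reverse order. This reverse order held in the small subunit (-0.23 with, -0.34 without) but not in the large subunit (-0.14 with, -0.08 without). For ATGGCG the medians over both subunits were -0.24 in 15 with and -0.15 in 32 without. They were -0.35 with and -0.25 without in the small subunit, and -0.17 and -0.06 in the large subunit. A lower median was thus not particular to the pyrimidine run, and none of these gaps was tested.

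Genes tied to the ribosome outside the symbol rule were counted from lists. Of 8 listed ribosomal proteins and relatives 6 were measured, and all 6 differences were below 0 with a median of -0.17. The 3 with the smallest p were Rpl22l1, a copy of Rpl22 (difference -0.51, SE 0.29), Rps27rt, a copy of Rps27 (-0.49, SE 0.34), and Fau, whose product is cut to a small subunit protein (-0.27, SE 0.24). The others were close to 0, with -0.07 (SE 0.28) in Rpl36al, -0.05 (SE 0.23) in Rps19bp1 and -0.05 (SE 0.32) in Rpl7l1. None of these 6 had groups without overlap.

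Translation factors and other proteins whose messengers also carry a TOP tract were measured for 17 of 19 genes. Of these 13 were below 0, with a median of -0.05, and none had an unadjusted p under 0.05. Eif3h, a subunit of the initiation factor that holds the small subunit, had 15.55, 15.68 and 15.64 in CCL6 cells, against 16.04, 15.98 and 15.69 in unstimulated cells. The elongation factor gene Eef1b2 had 16.65, 16.34 and 16.46 in CCL6 cells, against 16.78, 16.70 and 16.67 in unstimulated cells. These were the listed genes whose groups did not overlap (11.8% of 17, against 4.41% of all probe sets), with differences of -0.28 (SE 0.23) and -0.23 (SE 0.22). Pabpc1, the poly(A) binding protein, had a difference of 0.28 (SE 0.26), and Eif3k one of -0.28 (SE 0.26). Unstimulated replicate 3 lay below both other unstimulated arrays in 14 of the 17 genes, as it did in most members.

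Genes that build the ribosome had more differences above 0 than below. Of 42 listed biogenesis genes 38 were measured, 26 had a difference above 0 and 12 below, and the median was 0.07. Differences above 0 were found in 10780 of all 22206 probe sets and in 6445 of the 12544 above background. At an unadjusted p under 0.05, 4 of 38 were higher after CCL6, where 1.28% of all probe sets were, and 0 lower, where 1.81% were, and none had an adjusted p under 0.05. Polr1b, the second subunit of RNA polymerase I, had 8.35, 9.12 and 7.32 in CCL6 cells, against 5.99, 6.95 and 7.49 in unstimulated cells. Its groups overlapped at CCL6 replicate 3 and unstimulated replicate 3, and the difference was 1.45 (SE 0.51), with an adjusted p of 0.999 in limma (0.0197 unadjusted). The highest arrays of Polr1b were CCL6 replicates 1 and 2 and unstimulated replicate 3, which also had high proliferation values. A link between these was not tested. Gnl3l, a nucleolar GTPase, had 9.21, 9.54 and 9.31 in CCL6 cells, against 8.35, 8.72 and 8.88 in unstimulated cells (difference 0.70, SE 0.25). Dkc1, the pseudouridine synthase of ribosomal RNA, had 9.84, 9.87 and 9.60 in CCL6 cells, against 8.77, 9.44 and 8.91 in unstimulated cells (difference 0.73, SE 0.26). In Gnl3l and Dkc1 all CCL6 arrays were above all unstimulated arrays, and this also held for Rrp1b (difference 0.76, SE 0.28). These were 7.89% of the measured list, against 3.77% of all probe sets. Rrp9 had the reverse order (difference -0.36, SE 0.24).

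The signalling genes upstream of the ribosome were measured for 15 of 19 genes of the mTORC1 and S6 kinase route, with 10 differences above 0 and a median of 0.11. Eif4ebp2, an inhibitor of the cap-binding factor eIF4E, had 9.99, 9.61 and 9.19 in CCL6 cells, against 9.99, 10.28 and 10.22 in unstimulated cells (difference -0.57, SE 0.27). The CCL6 arrays were lower, and replicate 1 of both groups agrees when written to 2 decimals. Rps6ka3, a kinase of the ERK pathway, had a difference of 0.41 (SE 0.28) and Mlst8, a subunit of the mTOR complexes, one of 0.34 (SE 0.31). Of 20 genes of ribosome quality control and nucleolar stress 15 were measured, with 8 below 0 and a median of -0.03. Zfp598, which marks collided ribosomes, had 7.67, 7.95 and 8.08 in CCL6 cells, against 8.45, 8.22 and 8.59 in unstimulated cells, with no overlap and a difference of -0.52 (SE 0.24). Gtf2h5, a subunit of the transcription and repair factor TFIIH, also had no overlap (difference -0.45, SE 0.23), and the deubiquitinase gene Usp10 had a difference of 0.47 (SE 0.29). Zfp598 and Gtf2h5 were 13.3% of the measured list, against 4.41% of all probe sets with this order. This share counts Gtf2h5 because it was listed, although TFIIH is a factor of transcription and repair. None of the genes on either list had an adjusted p under 0.05.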

How the data were processed

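RNA of 6 cultures was hybridised to Clariom S mouse arrays, 3 per group. The deposited values are log2 expression values that the authors made with RMA (background correction, normalization between arrays, a summary per probe set). Not given in the sources used here were RMA's version and the build behind the probe sets, and the log base was inferred from the values, which run between 1.93 and 19.2. Of 22206 probe sets 19572 had 1 gene symbol in the platform annotation and 2634 were unnamed here. All 59 members matched a RefSeq gene.

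The difference between CCL6 and unstimulated cells was fitted per probe set with limma 3.58.1 (lmFit, eBayes; R 4.3.3) on the 6 arrays. P-values are two-sided, were adjusted over all probe sets by Benjamini and Hochberg's method and were called at 0.05. Groups without overlap are those in which every array of 1 group lies on the same side of every array of the other. The scripts were tested on simulated data. Student's test, which the methods use for other group data, was an alternative.

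Values by array are given for the 4 members per subunit above background with the smallest unadjusted p, the member with the largest positive difference, members without overlap, and second copies with their partners, and the 3 genes with the smallest p are named from comparison lists. Members and lists were chosen with earlier results of these data known. Promoter and gene entries are RefSeq's, and of several promoters of a gene the one with the longest run is shown.

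Alternatives were other normalizations, filters, array weights, a variance trend, averaged probe sets, the replicate number as a block, and leaving out arrays.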

Additional observations from a re-analysis of the deposited data

How the results depend on the processing

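The medians of both subunits stayed below 0 in all alternatives run. Leaving out each array in turn gave -0.36 to -0.16 for the small and -0.26 to -0.04 for the large subunit. The fit without both arrays numbered 3 gave -0.41 for the small and -0.31 for the large subunit. Members lower at an unadjusted p under 0.05 numbered 1 with all arrays. They numbered 4 with array weights, 4 with an intensity trend and robust variances, 4 with the methods' t-test, 2 with cyclic loess, 2 with named probe sets alone, 2 with probe sets of a gene averaged and 0 with median centring. Without both arrays numbered 3 there were 7, and leaving out single arrays gave 0 to 5, the 5 without unstimulated replicate 3. With all arrays 1.81% of all probe sets were lower at this threshold, and this share was not counted in the other fits. The counts of those fits therefore show how the call moved and are not read as a result about the members. Members lower without overlap numbered 9 with all arrays (4.41% of all probe sets) and 42 without both arrays numbered 3 (20.9% of all probe sets). They numbered 9 to 31 when 1 array was left out, the 31 without unstimulated replicate 3 (10.3% of all probe sets). Members higher without overlap numbered 0 to 4 in the fits with 1 array left out, where the share of all probe sets was not counted. With fewer arrays a separation is met more easily, by construction. No probe set had an adjusted p under 0.05 except 1 with the methods' t-test.

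The labels do not say whether arrays of the same replicate number were handled together. Same-numbered arrays had correlations of -0.0833, -0.232 and -0.661 between their deviations from the group means. Within a group these deviations sum to 0, so the correlations cannot decide whether the numbers pair the samples. With the number as a replicate block the members at an unadjusted p under 0.05 numbered 0.

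Differences close to 0 changed sign. When 1 array was left out, Rpl3 ranged from -0.19 to 0.10 and Rpl39 from -0.42 to 0.13. Rpl3l gave -0.04 with array weights, -0.10 without both arrays numbered 3 and -0.05 to 0.13 when 1 array was left out. Rps23 ranged from -0.04 to 0.24 when 1 array was left out, and gave -0.13 without the 2 arrays numbered 3. The causes were not tested.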
